A study of Drosophila melanogaster with 4 samples.

Results

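The regions described here are the weak end of an RNA polymerase II map that was nevertheless recovered in both libraries. They are 395 of the 5288 enriched regions in the list deposited for the whole series (7.47%), and 395 of the 2564 regions of chromosome arms 2L, 3L and 3R that had a counterpart in both chromatin immunoprecipitation (ChIP) replicates (15.4%). They were chosen by 4 criteria: a position on 2L, 3L or 3R, a deposited series score above 0 and below 0.6, a width under 4000 bp, and an overlap of at least 1 bp with an enriched region of each ChIP replicate. They are called weak narrow regions below. The score, the width and the presence in both replicates chose them, so these values are given as a description, with no test, and they support no statement.

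The study mapped RNA polymerase II by ChIP followed by sequencing in Kc167, a female Drosophila melanogaster cell line derived from late embryos with the genotype se/e. The antibody, ab5408, targets the heptapeptide repeat of the polymerase. The 2 ChIP libraries come with 2 input libraries, for which no regions were used here. No label says that the replicates were separate cultures, so their spread may be technical alone. All groups share the fixation in 1.8% formaldehyde for 10 min, and the line is 1 cell line grown in bulk, so polymerase bound in fewer cells and less polymerase per cell cannot be told apart.

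RNA polymerase II transcribes protein-coding genes and many noncoding RNAs. Its largest subunit ends in a tail of repeated heptapeptides, whose serines are phosphorylated as the enzyme leaves a promoter and moves into a gene. In Drosophila cells the polymerase often pauses a short way downstream of the start of transcription, so that ChIP gives a sharp region at promoters and a broader, lower one along genes that are actively elongated. A weak narrow region can therefore lie over a promoter with little bound polymerase or over another short stretch. Which of these applies to any region was not tested, because the positions are those of FlyBase release 5 while the only gene table used here follows release 6, so no gene is assigned and no sequence is printed.

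Scores are the authors' own values, 1 per region, on a log2 scale that was read from the values, and what forms the ratio is not stated. A higher score ranks a region above others within the same list. Among the weak narrow regions the series score had a median of 0.37, with quartiles of 0.25 and 0.46. In the replicates the score of the overlapping region had a median of 0.41 in replicate 1 and 0.42 in replicate 2 (0.41 ± 0.0046, mean and SD, n = 2). Of all enriched regions, 8.93% of replicate 1 and 8.92% of replicate 2 scored below those medians. The choice by a low series score and by overlap with these same regions favours such a rank, so it is a description alone. Single weak narrow regions reached 0.82 in replicate 1 and 1.10 in replicate 2. Stronger narrow regions, meaning those of the same arms under 4000 bp wide with a series score of 0.6 or more and a counterpart in both replicates (1185 regions), had a median replicate score of 1.49 ± 0.02 (SD, n = 2). The 984 reproducible regions of 4000 bp or more, called wide, had 1.72 ± 0.0043. All 3 lists come from the same cells, and the series list covers the same samples as the replicate lists, so the lists are not independent.

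Not every weak series region had a counterpart in both libraries. Of 723 enriched series regions on the 3 arms with a score below 0.6 and a width under 4000 bp, 395 were found in both replicates (54.6%, exact 95% interval 50.9 to 58.3). Over all 2958 enriched series regions of these arms the share found in both replicates was 86.7%. It was 94.9% for stronger narrow regions (1185 of 1249) and 99.8% for wide ones (984 of 986). Because the rule uses this overlap, nothing is read from the difference. Of the remaining weak series regions, 70 were in replicate 1 alone, 75 in replicate 2 alone and 183 in neither. Intervals here treat regions as independent draws and cover counting error only.

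By width, the share found in both replicates was lowest for the narrowest regions. Of 183 weak series regions under 1500 bp wide, 2 were in both replicates (1.09%, exact 95% interval 0.13 to 3.89). The share was 26.4% from 1500 to 1800 bp (18.4 to 35.6), 81.0% from 1800 to 2000 bp (74.0 to 86.8), 89.8% from 2000 to 2500 bp (84.7 to 93.7) and 78.9% from 2500 to 4000 bp (68.1 to 87.5). Both replicate lists began at a width of 1301 bp and the series list at 1001 bp, so absence of a very narrow region from the replicates does not show that its signal was missing there. By score, 46.0% were found below 0.1, and the share stayed between 38.2% and 47.4% in each further step of 0.1 up to 0.4, then reached 73.4% from 0.4 to 0.5 and 93.2% from 0.5 to 0.6. Among the 430 regions at least 1800 bp wide, the same steps gave 80.0%, 83.3%, 83.1%, 73.9%, 89.3% and 100% (67 of 67), and 84.7% over all of them. Score, width and presence in both replicates were all used by the rule, so these shares are a description alone.

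**Figure D1:**
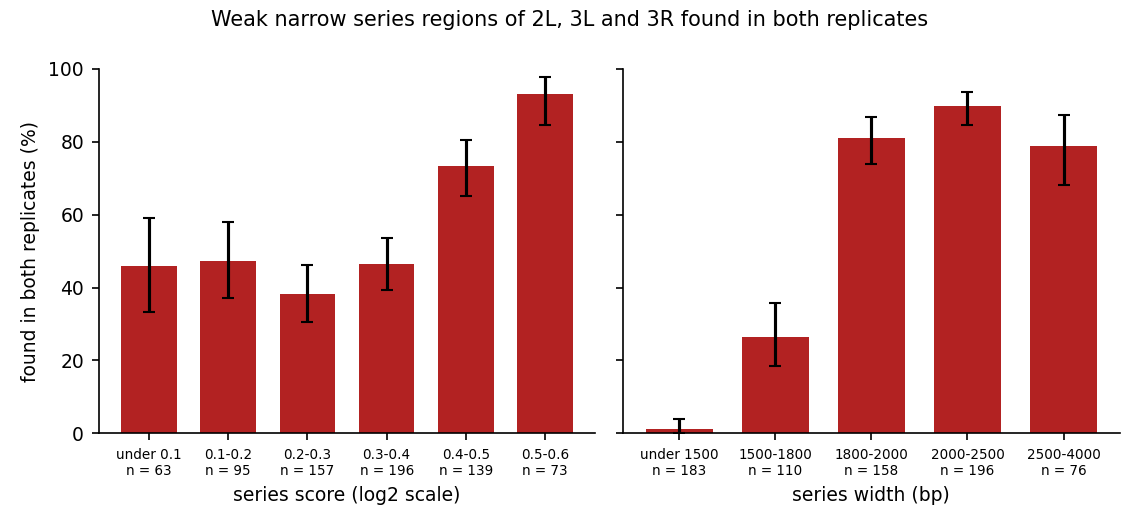
Percent of the weak series regions of 2L, 3L and 3R found in both ChIP replicates, by series score on the log2 scale (left) and by series width in bp (right); error bars are exact 95% intervals and n is the number of regions in each class. The share is 1.09% for regions under 1500 bp and at least 78.9% from 1800 bp upward, while by score it stays under 50% up to 0.4.

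The regions nearest each limit of the rule, on both sides, were picked for that nearness. Their similar series scores or widths were therefore fixed by the choice. The 3 members nearest below a score of 0.6 were on 2L (2861547 to 2863618), 3R (2198210 to 2200333) and 3L (2878258 to 2880355), each with a series score of 0.60 when rounded, with means over the replicates of 0.62 ± 0.11, 0.61 ± 0.06 and 0.62 ± 0.03 (SD, n = 2). Just outside, and also at 0.60 when rounded, lay 1 region of 2L (14392380 to 14394458) and 2 of 3L (8946038 to 8948421 and 12953989 to 12955946), with 0.60 ± 0.12, 0.64 ± 0.03 and 0.76 ± 0.08. At the width limit, the widest members were a region of 3R starting at 20224765 (3882 bp), one of 3L starting at 10668762 (3864 bp) and one of 2L starting at 19172080 (3739 bp). The narrowest beyond it, among reproducible regions that also scored below 0.6, were on 3L from 12195904 to 12200023 (4120 bp), on 2L from 809744 to 813955 (4212 bp) and on 2L from 1717551 to 1721804 (4254 bp).

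Nearly every weak narrow region was a single region in each library. In 392 of 395 cases (99.2%, exact 95% interval 97.8 to 99.8) the series region met exactly 1 region of each replicate, which met no other series region. The other 3 were split into 2 regions in replicate 2 and met 1 in replicate 1. They lay on 2L (9202625 to 9206203), 3L (7962816 to 7966511) and 3R (20224765 to 20228646), and were 3579, 3696 and 3882 bp wide. Stronger narrow regions matched 1 to 1 in 99.6% of cases and wide ones in 77.0%. The limit of 4000 bp favoured single matches in both narrow classes, since no replicate region was narrower than 1301 bp. These shares are therefore a description alone.

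Edges of the weak narrow regions fell close together in both libraries, though less closely than those of stronger narrow ones. Over the 392 matched regions the median distance was 37 bp between starts and 44 bp between ends, and 32 bp between centres. For stronger narrow regions these were 17, 16 and 15.5 bp, and for wide regions 41, 36 and 47.5 bp. The upper tail was long in the weak narrow regions, with 5% of starts more than 435 bp apart and a largest distance of 1621 bp. These values were 250 and 1540 bp in stronger narrow regions and 695 and 2318 bp in wide ones, so a long tail was not particular to weak narrow regions. The median series region was covered over 94.96% of its length in replicate 1 and 96.2% in replicate 2 (95.6 ± 0.85%, SD, n = 2), against 98.3 ± 0.17% for stronger narrow regions. Replicate regions were a little narrower than their series region, by a median of 99.5 bp in replicate 1 and 78 bp in replicate 2.

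The replicate scores of a weak narrow region usually lay within 0.25 of each other, in 380 of 392 cases (96.9%, exact 95% interval 94.7 to 98.4). Replicate 2 was the higher in 208 and replicate 1 in 184, and the mean difference, replicate 2 minus replicate 1, was 0.01 with an SD of 0.12. Stronger narrow regions had a mean difference of 0.02 and an SD of 0.12, so the spread between libraries was of like size in both classes. Replicate scores lay within 0.25 in 96.4% of stronger narrow and 98.2% of wide regions, so such agreement was not particular to weak narrow ones. A difference of 0.25 is also large beside their median replicate score of 0.41. Across the 392 regions the scores of the replicates correlated with Pearson's r = 0.73 and Spearman's rho = 0.72, against r = 0.99 and rho = 0.98 across 1180 stronger narrow regions. These correlations are over regions of the same pair of libraries, which are not replicates, and they depend on the range of scores chosen. By arm, rho was 0.72 on 2L (n = 115), 0.66 on 3L (n = 132) and 0.75 on 3R (n = 145).

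**Figure D2:**
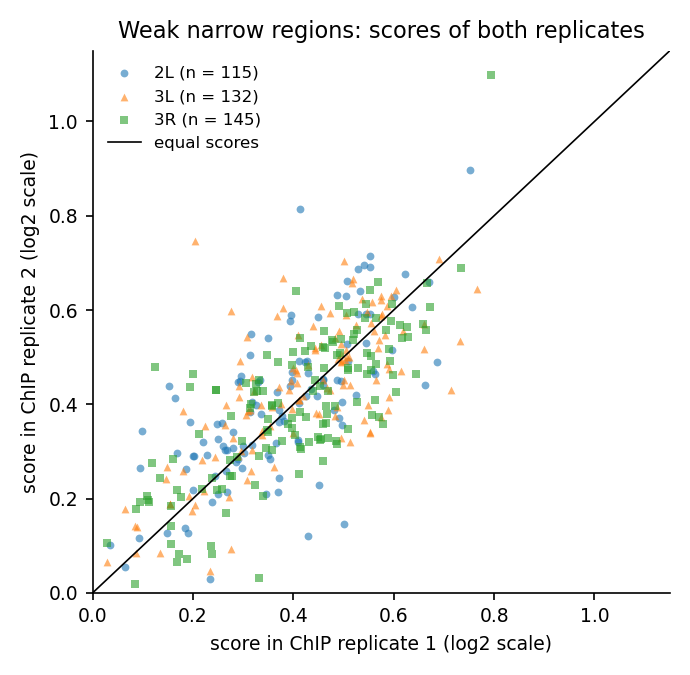
Deposited score of each weak narrow region in ChIP replicate 2 (vertical) against replicate 1 (horizontal), both on the log2 scale, for the 392 regions matched 1 to 1; symbols give the arm and the line marks equal scores. The points scatter around the line with an SD of the difference of 0.12, and single points reach differences of up to 0.54.

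The 5 regions with the largest difference between libraries were not the weakest ones. The largest was on 3L from 11157178 to 11159213, which scored 0.20 in replicate 1 and 0.75 in replicate 2. On 2L, the region from 14358372 to 14360569 scored 0.41 and 0.81, and the one from 20165939 to 20167806 scored 0.50 and 0.15. The region on 3R from 11152825 to 11154817 scored 0.12 and 0.48, and the one on 3L from 12482655 to 12484692 scored 0.28 and 0.60. In 4 of these 5 regions replicate 2 was the higher one, and their series scores lay between 0.30 and 0.57.

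The series score of a weak narrow region was below both replicate scores in 204 of 395 regions (51.6%, exact 95% interval 46.6 to 56.7), between them in the rest, and above both in 0 of 395, which allows a share of up to 0.759% by the limit of 3 counts. The median of the series score minus the mean of both replicates was -0.04. In stronger narrow regions the series score was below both in 32.6%, above both in 6 of 1185, and the median difference was -0.02. In wide regions it was below both in 50.4%, close to the share in weak narrow ones, above both in 12 of 984, and the median difference was -0.03. Choosing regions by a low series score favours such a difference, so it is given as a description, and nothing particular to weak narrow regions is read from it. Of the weak narrow regions, 337 (85.3%) scored below 0.6 in both replicates, 45 in 1 of them and 13 in neither.

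The lowest series score, 0.013, belonged to 2L from 19180617 to 19182498, which scored 0.09 in replicate 1 and 0.12 in replicate 2. It was followed by 3L from 11757910 to 11759786 (series 0.016, replicates 0.13 and 0.08) and 3R from 7022554 to 7024324 (0.017, replicates 0.16 and 0.14). The next were 3R from 21114786 to 21116631 (0.018, replicates 0.11 and 0.19) and 3L from 1737701 to 1739609 (0.026, replicates 0.03 and 0.06). In each of these 5 regions, which were picked by their low series score, both replicate scores were above it. At the top of the range, beside the 3 regions given at the score limit, were 3R from 67325 to 69398 (series 0.60, replicates 0.60 and 0.61) and 3L from 21609680 to 21611846 (series 0.59, replicates 0.57 and 0.63). No weak narrow region overlapped a region that the authors typed as depleted in any of the 3 lists, and 2 lay within 5 kb of one of the 55 depleted series regions of these arms. These counts were not taken for other enriched regions, so they are not read as a trait of weak narrow regions.

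Widths of weak narrow regions were concentrated near 2 kb, which the rule favoured. Of the weak series regions, only 2 of 183 under 1500 bp and 29 of 110 from 1500 to 1800 bp were in both replicates. The widths are therefore a description alone, and no trait is read from them. The median was 2028 bp and the quartiles were 1946 and 2154 bp, and 248 of 395 (62.8%) measured 1900 to 2200 bp. Stronger narrow regions had a median width of 2479 bp, with quartiles of 2233 and 3097 bp, and 18.4% of them fell in the band of 1900 to 2200 bp. In the replicates the median weak narrow region measured 1942 and 1960 bp (1951 ± 13 bp, SD, n = 2), against 2359 and 2382 bp for stronger narrow regions. Among the 395 weak narrow regions, width and series score went together, with a Pearson's r of 0.44 and a Spearman's rho of 0.74. Both values come from the same signal, and both were limited by the rule. Divided by series score into 3 classes of equal size, the lowest class (scores up to 0.30) had a median width of 1922 bp, the middle class 2035 bp and the highest class (from 0.43) 2137 bp. Distances between replicate starts did not follow this order, with medians of 32.5, 44 and 35 bp.

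**Figure D3:**
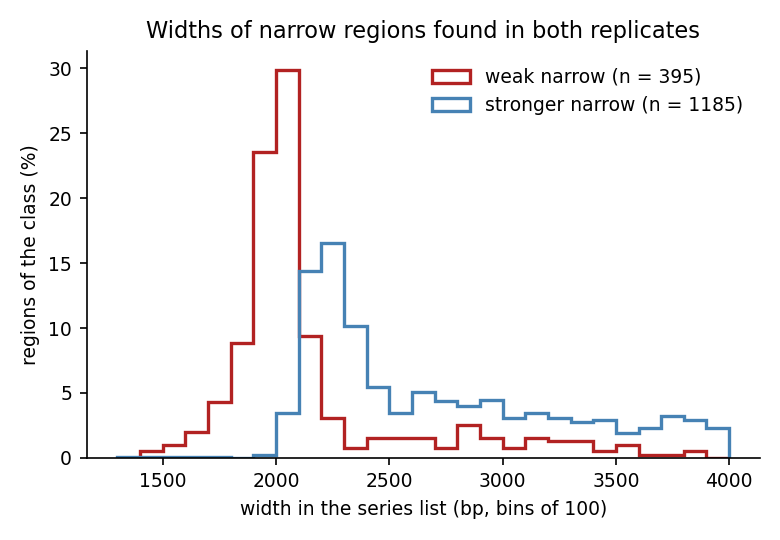
Distribution of series widths in bp, in bins of 100 bp, of weak narrow and stronger narrow regions found in both replicates, as percent of each class. Weak narrow regions peak near their median of 2028 bp and stronger narrow ones near 2.2 kb, with a longer tail toward 4000 bp. The overlap with both replicates, a part of the rule, left out most weak series regions under 1800 bp.

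The 5 narrowest weak narrow regions were on 2L from 12062100 to 12063563 (1464 bp), and on 3L from 1063659 to 1065154 (1496 bp), from 12251015 to 12252518 (1504 bp), from 18049353 to 18050906 (1554 bp) and from 18751601 to 18753179 (1579 bp). Their replicate scores averaged 0.34 ± 0.03, 0.34 ± 0.0021, 0.22 ± 0.0046, 0.45 ± 0.02 and 0.19 ± 0.07 (SD, n = 2). Each of them scored lower in the series list, at 0.19, 0.23, 0.13, 0.27 and 0.13.

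The rule named no position beyond the choice of arms, but its limits on score and width moved distances and densities, as the values under other limits show. Requiring only 1 replicate moved the density, while the median distance (2525 and 2531 bp) stayed within its interval. Regions are not replicates, so these values are given with their spread and with no test. Weak narrow regions lay at a median of 2781 bp from the nearest other enriched series region (95% interval of the median 2105 to 3438), against 3184 bp for stronger narrow regions and 1836 bp for wide ones. Measured within each replicate list, the medians were 3192 and 3211 bp for weak narrow regions (3202 ± 13, SD, n = 2), 3869 and 3851 bp for stronger narrow ones and 2069 and 2040 bp for wide ones. The SD of 13 bp is the spread of repeated measurement of the same places and not that over regions, and the interval over regions includes the median of stronger narrow regions, so a difference from them is not shown. In 113 of 395 weak narrow regions (28.6%, exact 95% interval 24.2 to 33.3) another enriched region lay under 1000 bp away, against 25.4% of stronger narrow regions (22.9 to 28.0) and 35.8% of wide ones (32.8 to 38.9). With only the 159 members under 2000 bp wide the median distance was 4500 bp, with only the 261 scoring at least 0.3 it was 1928 bp, and with regions under 500 bp apart merged the share under 1000 bp was 14.2%, as merging removes the shortest distances.

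**Figure D4:**
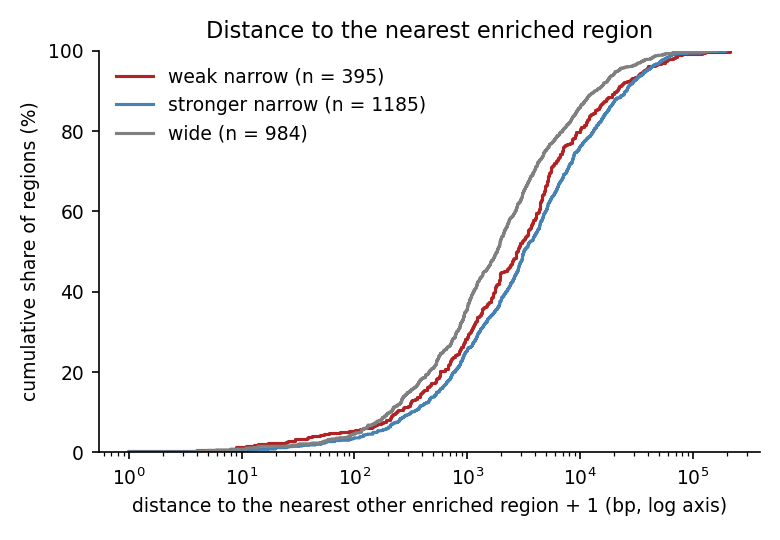
Cumulative percent of regions against the distance in bp to the nearest other enriched region of the series list (log axis, 1 added), for the 395 weak narrow, 1185 stronger narrow and 984 wide regions found in both replicates. The curve of the weak narrow regions runs between the other two over most of its length, with medians of 2781, 3184 and 1836 bp.

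Neighbours of weak narrow regions were mostly stronger narrow or wide regions. The nearest region was another weak narrow region in 53 of 395 cases (13.4%, exact 95% interval 10.2 to 17.2), a stronger narrow one in 42.5% (37.6 to 47.6), a wide one in 34.7% (30.0 to 39.6) and a region not found in both replicates in 9.37% (6.68 to 12.7). Among all 2958 enriched series regions of the arms these kinds made up 13.4%, 40.1%, 33.3% and 13.3%. The first 3 of these shares lay within the intervals for neighbours, and the last, of regions not found in both replicates, lay above its interval. The nearest region had a median series score of 1.28 for weak narrow regions, against 1.20 for stronger narrow and 1.21 for wide ones. Across the 395 weak narrow regions its score had a Spearman rho of 0.07 with their own. The 2 smallest distances were to wide regions. On 2L, the region from 865357 to 867387 touched one scoring 3.17. On 3R, the one from 1624513 to 1627622 lay 3 bp from one scoring 1.72. These 2 were chosen after their values were seen. Among all 113 regions with a neighbour under 1000 bp away, it was wide in 49, stronger narrow in 45, weak narrow in 12 and not found in both replicates in 7.

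Weak narrow regions close to another region scored somewhat higher than remote ones. The 113 with a neighbour under 1000 bp away had a median series score of 0.39, the 150 with one at 1000 to 5000 bp 0.38, the 90 at 5000 to 20000 bp 0.34 and the 42 farther away 0.30. Quartiles were 0.30 and 0.47 in the closest class and 0.16 and 0.41 in the most remote, so the classes overlapped widely. Replicate 1 gave 0.44, 0.42, 0.39 and 0.36 for the same classes, and replicate 2 gave 0.44, 0.43, 0.39 and 0.33. Median width took the same order, from 2091 bp in the closest class to 1978.5 bp in the most remote, and so did the median score of the neighbour, from 1.45 to 1.06. Across the 395 regions the Spearman rho of series score with distance was -0.20, a weak relation over regions that share their libraries. The part of the neighbour's own signal was not tested.

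In 42 of the 395 regions (10.6%, exact 95% interval 7.8 to 14.1) no other enriched region lay within 20 kb on either side, against 12.7% of stronger narrow and 5.79% of wide regions. The most isolated was on 3L from 18390874 to 18392469, which was 211202 bp from the next region on one side and 216776 bp on the other. It was 1596 bp wide and scored 0.08 in the series list but 0.36 and 0.39 in the replicates. On 3L, the region from 4975101 to 4977140 stood 127106 bp from its nearest neighbour, with a series score of 0.56 and replicate scores of 0.57 and 0.59. On 2L, the region from 18319211 to 18321194 stood 119394 bp away (0.26, replicates 0.26 and 0.30), the one from 14489932 to 14491883 stood 79382 bp away (0.14, replicates 0.09 and 0.26) and the one from 17962513 to 17964481 stood 72282 bp away (0.21, replicates 0.19 and 0.26). In 4 of these 5 regions the replicate scores were within 0.1 of each other. At the other extreme, 89 regions (22.5%) had an enriched region under 5 kb away on both sides, a share that was not taken for the other classes.

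The 3 arms carried weak narrow regions at about the same density. There were 116 on 2L, 133 on 3L and 146 on 3R, which is 5.04 per Mb (exact Poisson 95% interval 4.17 to 6.05), 5.42 (4.54 to 6.42) and 5.23 (4.42 to 6.15). Together they covered 852 kb, or 1.13% of the sequence of the arms and 7.07% of the length covered by reproducible regions. As a share of the reproducible regions of an arm they made up 15.2% on 2L (exact 95% interval 12.7 to 17.95), 15.6% on 3L (13.2 to 18.2) and 15.4% on 3R (13.2 to 17.9). The same criteria applied to the other large arms gave 139 regions on 2R, or 15.3% of its reproducible regions (13.0 to 17.8), and 104 on the X, or 12.9% (10.7 to 15.4). The intervals of these 5 shares overlapped. The densities were 6.57 per Mb on 2R (exact Poisson 95% interval 5.53 to 7.76) and 4.64 on the X (3.79 to 5.62). Against the 5.23 of the 3 arms together (4.73 to 5.78), the density of 2R lay above the interval and that of the X below it. Median series scores were 0.34 on 2L, 0.42 on 3L and 0.37 on 3R. Replicate 1 gave 0.37, 0.44 and 0.42 for the same arms, while replicate 2 gave 0.40 on both 2L and 3R and 0.44 on 3L. The median of 3L was the highest in each list, but the lists are not independent. Quartiles of the series score were 0.24 and 0.42 on 2L, 0.26 and 0.49 on 3L and 0.28 and 0.46 on 3R. The arms thus overlapped widely, and no order of arms is read from these medians.

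At the ends of the arms nearest the centromere weak narrow regions were neither denser nor sparser than elsewhere beyond counting error. The 2 Mb nearest the centromere on each of the 3 arms held 31 of the 395 regions (7.85%, exact 95% interval 5.4 to 10.95). They held 7.61% of all reproducible regions and 7.95% of the sequence. By arm, this stretch held 8 of 116 regions on 2L, 7 of 133 on 3L and 16 of 146 on 3R.

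Along the arms, bins of 1 Mb held a median of 5 weak narrow regions, with quartiles of 3 and 7 and a maximum of 10. The count followed that of the other reproducible regions only loosely (Pearson's r = 0.31 and Spearman's rho = 0.31 across 74 bins). Bins neighbour each other on the same chromosomes and share the libraries. The 2 bins without a weak narrow region were 2L from 15000001 to 16000000, with 15 other reproducible regions, and 3R from 12000001 to 13000000, with 33. The 5 bins that held 10 had between 25 and 40 others.

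Most weak narrow regions stood alone in the order of regions along an arm. They made up 13.4% of the 2958 enriched series regions of these arms. With so small a share few neighbours are members, so standing alone is not read as a trait of these regions. With no other enriched series region between them, 292 formed no run with another member, 37 runs held 2, 7 runs held 3 and 2 runs held 4. Successive weak narrow regions of an arm were separated by a median of 110238 bp. Of 379 windows of 200 kb, 227 held at least 1 member, and the fullest, on 2L from 7400001 to 7600000, held 7 beside 4 other reproducible regions. Its 7 members were 1953 to 2034 bp wide, and 3 of them lay within 7849 bp, from 7436504 to 7444352. Those 3 scored 0.29, 0.37 and 0.29 in replicate 1 and 0.45, 0.21 and 0.28 in replicate 2. Over all 7 members the series scores ran from 0.21 to 0.56, and replicate 2 was the higher in 5. A further 6 windows held 5 members each, 2 on every arm.

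The runs of 4 lay on 2L and 3L. On 2L, 4 weak narrow regions spread over 139203 bp from 3729555 to 3868757 with no other enriched series region between them. Their series scores ran from 0.10 to 0.13, and they scored 0.26, 0.32, 0.17 and 0.15 in replicate 1 and 0.31, 0.31, 0.30 and 0.44 in replicate 2. On 3L, close to the end of the arm, 4 lay within 60136 bp from 24137200 to 24197335. They scored 0.39, 0.09, 0.09 and 0.59 in replicate 1 and 0.43, 0.08, 0.14 and 0.47 in replicate 2, so the stronger pair stood at the outside of the run in both libraries.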

How the data were processed

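ChIP-seq of RNA polymerase II gave 3 region lists: 1 per ChIP replicate and 1 for the series. Bowtie 0.12.7 is named in the submitters' processing notes, per the labels; the caller, its threshold and the control are not stated in them. Positions are of FlyBase release 5, per the file headers. The score deposited by the authors was taken as log2: some scores recur exactly, and 16 of 2926 pairs of such values in the series list lay a whole number's log2 apart (tolerance 1e-06), 0 its natural log or log10. Lists hold no counts, so depth is unknown and intervals cover counting error only.

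Where several replicate regions overlapped a member, the one with most overlap gave the score. Distances are bases between neighbouring enriched regions. Shares have exact (Clopper-Pearson) 95% intervals, densities Poisson ones, medians binomial ones. Members and comparisons were chosen with earlier results of these data known; width and score classes and distance classes were added after the values were seen. Named regions are those with extreme score, width, replicate difference or distance, those at the limits, and the fullest 200 kb windows. Alternatives were 50% overlap, merging, a score of at least 0.3, a width under 2000 bp and each replicate alone. Overlap and distance code was tested on simulated lists. Software was Python 3.11.15 with scipy 1.17.1, numpy 2.4.6, matplotlib 3.10.9 and pandas 2.3.3.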

Additional observations from a re-analysis of the deposited data

How the results depend on the processing

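The count of weak narrow regions (395) was 261 with a series score of at least 0.3 and 159 with a width under 2000 bp, by construction. The share of weak series regions in both replicates (54.6%) was 59.0% after merging regions under 500 bp apart, 64.0% with a score of at least 0.3, 35.3% with a width under 2000 bp, and 64.3% to 65.01% with 1 replicate required. The 1-to-1 share (99.2%) was 100% with an overlap of 50% of both regions and with a width under 2000 bp, and 99.4% to 100% with 1 replicate required. The median replicate score (0.41) was 0.48 with the stricter score, 0.28 with the stricter width and 0.40 to 0.41 with 1 replicate required. The median distance to the nearest region (2781 bp) was 3980 bp after merging, 1928 bp with the stricter score and 4500 bp with the stricter width, and the share under 1000 bp (28.6%) was 14.2% after merging and 20.8% with the stricter width. The density (5.23 per Mb) was 4.40 after merging, 3.46 with the stricter score, 2.11 with the stricter width and 6.16 to 6.23 with 1 replicate required. Edge distances, the share of score differences within 0.25, the share at the centromeric ends and the covered length moved by less than their spread in every setting that gave them; with 1 replicate, edge distances and score differences cannot be given. Of 42 values for single arms, widths and neighbours, 17 moved by more than their interval. Except where construction shows it, the cause was not tested. No paired analysis was possible because no values of the inputs, whose replicate numbers match those of the ChIP samples, were used. What depth limits could not be measured from region lists.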

Other observations

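These regions were chosen after their values were seen. In 5 weak narrow regions the series score fell furthest below the mean of the replicates. The region on 3R from 27238087 to 27240081 scored 0.43 in the series list, against 0.79 in replicate 1 and 1.10 in replicate 2, and its replicate regions were 1466 and 1330 bp wide within a series region of 1995 bp. The first region of 2L, from 58164 to 59783, scored 0.51 in the series list and 0.82 ± 0.10 in the replicates (SD, n = 2). The isolated region on 3L from 18390874 to 18392469 scored 0.08 and 0.38 ± 0.03. Arm 3R held another 2 of them: 31445 to 33154, with 0.45 in the series list and 0.71 ± 0.03 in the replicates, and 16488480 to 16490116, with 0.027 and 0.28 ± 0.07. In each of the 5 the replicate regions were narrower than the series region, at 1325 to 1608 bp. How the authors combined the replicates was not tested. Of the 395 weak narrow regions, 11 had a series score that recurred exactly in another region of the list. The share over the whole list was not taken, so this count is not read as high or low.

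Weak series regions that were missing from a replicate lay closer to other regions than those in both. The median distance to the nearest enriched series region was 2781 bp for the 395 found in both replicates, 1295 bp for the 145 found in 1 and 1236 bp for the 183 found in neither. Another region lay under 1000 bp away in 28.6% (exact 95% interval 24.2 to 33.3), 43.4% (35.2 to 51.9) and 45.9% (38.5 to 53.4) of them. Median widths of the 3 classes were 2028, 1705 and 1258 bp, so distance and width moved together across these classes. Among weak narrow regions alone the order was the reverse: those under 2000 bp wide had a median distance of 4500 bp, against 2781 bp for all. The median width of the class found in neither lay below 1301 bp, the narrowest width in both replicate lists. The part of width and of these list limits was not tested.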
